A study of Mus musculus with 6 samples.

Results

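Amacrine cells release GABA, glycine, acetylcholine, nitric oxide and neuropeptides onto bipolar cells, ganglion cells and each other. The 10 genes described here mark these chemical classes: Gad1 and Gad2 make GABA, Slc32a1 loads it into vesicles, Chat makes acetylcholine, Slc18a3 loads it, Nos1 makes nitric oxide, and Tac1, Vip, Npy and Penk encode neuropeptide precursors. They were chosen by name, and all 10 were among the 15465 genes of the tables. The samples were retinas of wild-type C57BL6/J mice, a common inbred laboratory strain, in 1 group with no treatment and no control group. Each of 3 biological replicates was a library from a pool of 5 mice, and its 2 technical replicates shared 1 column of values, so n was 3 and differences between single animals were averaged within a pool. This grouping follows the sample titles. The source labels number the same samples otherwise, and if those were right the 3 columns would not be independent and the SDs and p-values would not hold. Values are RPKM, read numbers divided by transcript length and by the size of the library, a unit inferred from the numbers.

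GABA is made from glutamate by the glutamate decarboxylases encoded by Gad1 and Gad2, and the vesicular transporter of Slc32a1 carries both GABA and glycine. Starburst amacrine cells are the cholinergic neurons of the retina, and they release GABA as well. Neuropeptides are cut from longer precursors in dense-core vesicles and mark small sets of amacrine cells, some of which also use GABA. Horizontal cells of the mouse retina also use GABA genes, so none of the GABA genes belongs to amacrine cells alone.

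The members spanned a wide range of levels per length. Means ordered Gad1 first, at 66 ± 9.26 RPKM (SD, n = 3), then Slc32a1 (54.9 ± 7.21), Penk (41.7 ± 17.2), Tac1 (13.2 ± 3.17), Slc18a3 (6.26 ± 1.08), Chat (5.83 ± 0.55), Gad2 (5.68 ± 0.227), Npy (5.16 ± 8.14), Vip (4.82 ± 1.06) and Nos1 (1.09 ± 0.0321). In this order Penk stood above Tac1, Tac1 above Slc18a3 and Vip above Nos1 in all 3 replicates with ranges that did not overlap, and the ranges of the other 6 pairs of neighbours overlapped. The median over all genes was 6.26 RPKM. All 3 replicates reached 1 RPKM for 9 of the 10 members, against 77.5% of all genes. The exception was Npy. Levels in whole retina cannot tell apart fewer cells of a type and less RNA per cell.

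**Figure D1:**
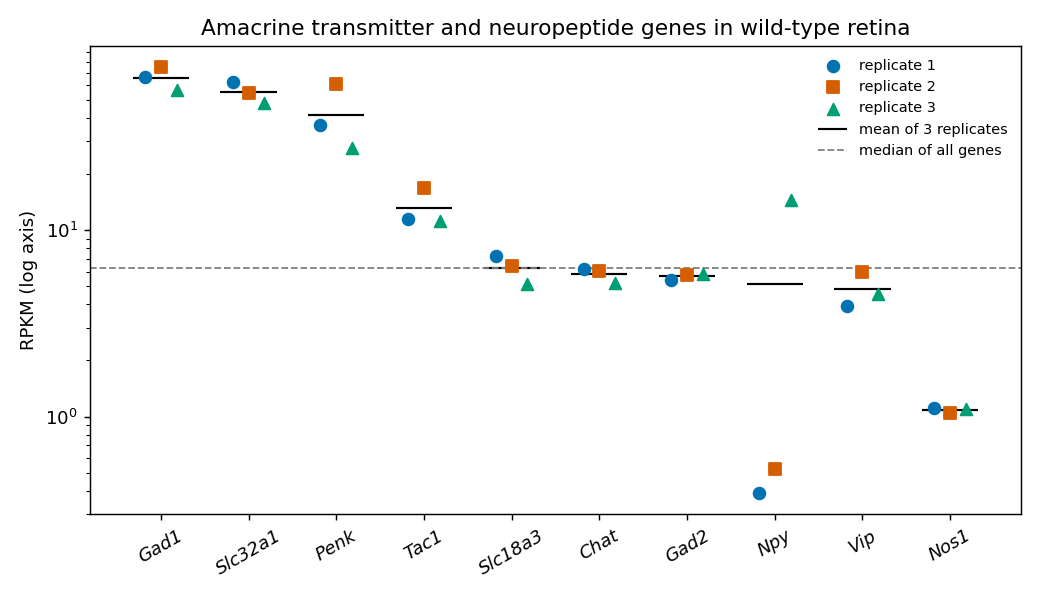
RPKM (log axis) of the 10 members in each of the 3 replicates, with the mean as a bar and the median of all genes (6.26 RPKM) as a dashed line. Gad1, Slc32a1 and Penk stand above the rest, Nos1 lies near 1 RPKM, and Npy is split between 14.56 RPKM in replicate 3 and 0.39 and 0.52 RPKM in replicates 1 and 2.

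Among the GABA genes, Gad1 and Slc32a1 were far above Gad2. Gad1, which encodes GAD67, had 66.5, 74.98 and 56.49 RPKM in replicates 1, 2 and 3, more than 96.1% of all genes had. Gad2, which encodes GAD65, had 5.42, 5.78 and 5.84 RPKM, near the middle of all genes. The 2 ranges were far apart in each pool. Within a replicate Gad1 exceeded Gad2 by 3.53 ± 0.22 on the log2 scale (SD, n = 3), an 11.5-fold ratio, and made up 92% ± 1.18 of their summed RPKM. This ratio leans on transcript length: the Gad2 transcript was 5.744 kb and that of Gad1 2.188 kb in the annotation used here, and with values multiplied back by length the log2 ratio was 2.14. Slc32a1 had 62.3, 54.56 and 47.9 RPKM. It stood below Gad1 and Gad2 together in every pool, with a log2 ratio of -0.38 ± 0.18. An antisense gene, Gm14205, overlaps exons of Slc32a1, and without a stated use of strand its reads cannot be told apart from those of Slc32a1. No test of these ratios was made, since with 3 replicates the smallest p of an exact sign-flip test is 0.25.

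The acetylcholine pair stood near the middle of all genes and was evenly matched. Chat, choline acetyltransferase, had 6.23, 6.05 and 5.2 RPKM in replicates 1, 2 and 3. Slc18a3, the vesicular acetylcholine transporter, had 7.26, 6.41 and 5.12 RPKM. Before scaling, both genes were highest in replicate 1 and lowest in replicate 3, and their ranges overlapped. After scaling Chat had 6.34, 5.55 and 5.58 and Slc18a3 had 7.38, 5.88 and 5.49, so Chat was lowest in replicate 2. The log2 ratio of Slc18a3 to Chat was 0.09 ± 0.12, smaller than its own spread. Multiplied by transcript length it was -0.15, a move that follows from the lengths themselves. The ranges overlapped and Slc18a3 was the higher gene in 2 of the 3 replicates, so the data give no order for the pair. Gad1 and Gad2 together exceeded Chat by 3.62 ± 0.11 on the log2 scale, a 12.3-fold ratio with the smallest SD of the 7 ratios taken between members, at 11.5, 13.3 and 12 in the 3 replicates.

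Chat and Slc18a3 form a nested locus: Slc18a3 lies within the span of Chat on the same strand, and in the annotation of GRCm38 no exon of one overlaps an exon of the other. Because both genes belong to 1 locus, the 250 bases before each annotated start (RefSeq, GRCm38.p6, another build than that of the values) are shown 5′ to 3′ on the strand of the gene. They lie at chr14:32465910-32466159 (minus strand) and chr14:32464851-32465100 (minus strand). Capitals mark the half-site of the cyclic AMP response element, TGACG or its reverse complement CGTCA.
Chat: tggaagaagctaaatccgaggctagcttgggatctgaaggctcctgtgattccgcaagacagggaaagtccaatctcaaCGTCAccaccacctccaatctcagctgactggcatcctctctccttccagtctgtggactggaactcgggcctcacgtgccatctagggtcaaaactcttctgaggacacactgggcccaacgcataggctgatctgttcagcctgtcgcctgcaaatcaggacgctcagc
Slc18a3: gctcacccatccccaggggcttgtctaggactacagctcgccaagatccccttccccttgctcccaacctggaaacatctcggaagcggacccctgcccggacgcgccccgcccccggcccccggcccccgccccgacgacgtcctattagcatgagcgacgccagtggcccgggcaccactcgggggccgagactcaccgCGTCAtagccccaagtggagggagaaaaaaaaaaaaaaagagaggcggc
Each window held 1 half-site, 171 bases before the start of Chat and 49 bases before that of Slc18a3. Windows of this length were found for 9 members, all but Penk. The half-site stood in 6 of these 9 windows, against 17.8% of the 32851 promoter windows of all genes, and the full element TGACGTCA, which contains it, stood in 0 of 9 and in 1.55% of all. The matches describe letters and not binding.

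**Figure D2:**
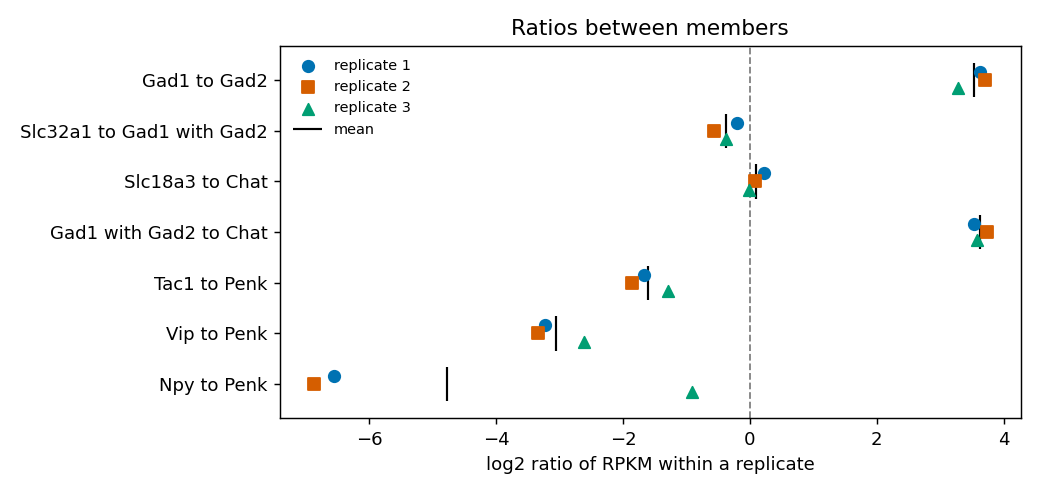
Log2 ratio of RPKM between members within each replicate (points) with the mean (bar), and a dashed line at equal levels. Gad1 exceeded Gad2, and Gad1 with Gad2 exceeded Chat, by more than 3 on the log2 scale in each replicate, Slc18a3 and Chat were near 0, and the ratio of Npy to Penk ran over several log2 units.

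Nos1, the neuronal nitric oxide synthase, was the lowest member by mean, with 1.11, 1.05 and 1.1 RPKM in replicates 1, 2 and 3. The highest was 1.06 times the lowest before scaling and 1.23 times after it, and 19.7% of all genes had a lower mean. The transcript taken for its length was the longest of the members (10.123 kb), so a value per length rests on that choice. An antisense gene, Gm26995, overlaps exons of Nos1 and cannot be told apart from it without strand. Of the other synthases, Nos3, the endothelial enzyme, had 4.53, 4.84 and 4.19 RPKM, and Nos2, the inducible enzyme, had 0.2, 0.11 and 0.07 RPKM. Nos2 and Nos3 were named outside the rule for naming genes, after their values had been seen.

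Penk was the highest of the 4 neuropeptide precursors among the members. Penk, the precursor of the enkephalins, had 36.82, 60.88 and 27.51 RPKM in replicates 1, 2 and 3, with replicate 2 at 2.21 times replicate 3. After scaling, replicate 2 was at 1.89 times replicate 3. Tac1, the precursor of substance P, had 11.53, 16.85 and 11.2 RPKM. Vip, the precursor of vasoactive intestinal peptide, had 3.94, 6.0 and 4.52 RPKM. All 3 genes were highest in replicate 2. Penk made up 68.9% ± 4.72 of their summed RPKM, and the log2 ratio to Penk was -1.61 ± 0.28 for Tac1 and -3.06 ± 0.40 for Vip. Multiplied by transcript length, the ratio for Tac1 was -2.20. An antisense gene, A830012C17Rik, overlaps exons of Penk and cannot be told apart from it without strand.

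The windows before the starts of the neuropeptide genes Tac1 and Vip are also shown. A link between their letters and the differences between pools was not tested. They lie at chr6:7554811-7555060 (plus strand) and chr10:5638968-5639217 (plus strand) in GRCm38.p6, and the bases are from RefSeq. Capitals mark the same half-site and the TATA box letters TATAAA (reverse complement TTTATA).
Tac1: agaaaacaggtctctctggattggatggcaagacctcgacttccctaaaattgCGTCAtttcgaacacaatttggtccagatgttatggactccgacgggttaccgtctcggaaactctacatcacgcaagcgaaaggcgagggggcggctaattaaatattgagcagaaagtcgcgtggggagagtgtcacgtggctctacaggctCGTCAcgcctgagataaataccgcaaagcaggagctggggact
Vip: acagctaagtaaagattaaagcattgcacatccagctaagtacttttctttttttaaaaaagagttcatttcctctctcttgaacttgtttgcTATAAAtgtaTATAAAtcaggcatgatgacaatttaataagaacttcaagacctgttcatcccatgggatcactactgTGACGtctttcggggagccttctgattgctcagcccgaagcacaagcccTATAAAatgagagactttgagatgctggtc
The Tac1 window held 2 half-sites, 197 and 43 bases before the start. The Vip window held 1, at 79 bases, and 3 TATA matches, the nearest 30 bases before the start. TATA letters stood in 2 of the 9 member windows, those of Vip and Gad1, and in 12.4% of all windows.

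The spread between pools was tested for each gene by setting its variance over the replicates against that of genes of like level (limma's robust trended prior, F test on log2(RPKM + 0.1) after scaling, Benjamini-Hochberg adjustment). All 10 members had the mean of 1 RPKM needed for the test, Npy only through replicate 3. Of the 10, 1 was called, Npy, against 5.44% of the 12562 genes tested. Because Npy passed the filter only through the replicate in which it was high, its call is given as a description. Npy had 0.39, 0.52 and 14.56 RPKM in replicates 1, 2 and 3 (adjusted p = 7.33e-05, limma), a log2 SD of 2.82. The call ended with a non-robust prior, under which limma called 0 genes, with 704 at an unadjusted p under 0.05, and gave Npy an adjusted p of 0.247. Penk came next, with a log2 SD of 0.46, larger than that of 93% of the genes tested, and did not pass (adjusted p = 0.247, limma). The other 8 members had log2 SDs between 0.1 and 0.23 and an adjusted p of 0.993 each. The median over the 10 members was 0.20, against 0.15 over all genes tested. A p above the threshold does not show that their levels were alike.

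The call of Npy concerns a row whose symbol is close to those of other rows. Npy, which encodes neuropeptide Y, is a symbol that other symbols extend by a digit. In the lists used here some rows of this kind differed widely between replicates, as Slc38a1 did (0.07, 22.23 and 0.08 RPKM). Others of this kind were steady, as Slc6a11 was (66, 68.34 and 65.64 RPKM). Npy was the 1 member of this kind. In replicate 1 the receptor gene Npy5r had 3.94 RPKM, against 0.1 and 0.04 in replicates 2 and 3. In replicate 2 Npy6r had 3.91 RPKM, against 0.06 and 0.07 in replicates 1 and 3. Each replicate thus had 1 high row among the 5 symbols that begin with Npy and run on with a digit or end there, and it was a different row each time. Multiplied by the transcript length of its own row, the high value was 9.12 in replicate 1 (Npy5r), 10 in replicate 2 (Npy6r) and 8.24 in replicate 3 (Npy), and after scaling 9.27, 9.2 and 8.84. Divided by the Npy length of 0.566 kb, these products would be 16.1, 17.7 and 14.6 RPKM, a mean of 16.1 ± 1.59. The products were taken after the values had been seen, and whether the rows exchanged reads was not tested. The place of Npy in the order of levels, and its log2 ratio to Penk of -4.78 ± 3.35, are therefore uncertain; the mean of its row without replicate 3 was 0.455 RPKM. Without the 2656 genes of this kind, Npy among them, 0.936% of 10474 genes were called and 0 of the 9 other members. Of these 9, 1 had an unadjusted p under 0.05, Penk, whose adjusted p was 0.0807 (limma).

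**Figure D3:**
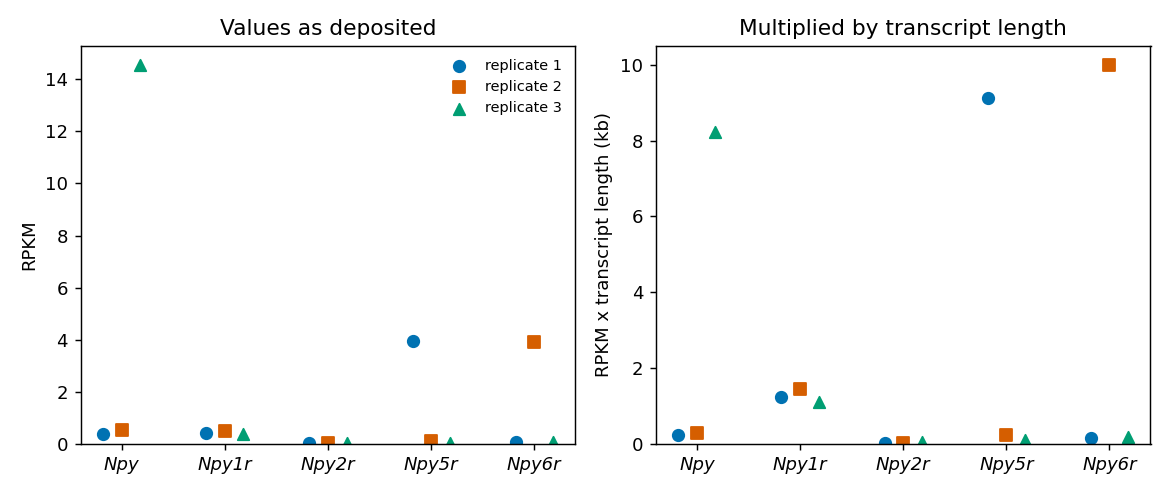
Values of the 5 rows Npy, Npy1r, Npy2r, Npy5r and Npy6r in each replicate, as deposited (left, RPKM) and multiplied by the transcript length of the row (right). The high row is Npy5r in replicate 1, Npy6r in replicate 2 and Npy in replicate 3, and the products of these rows lie between 8.24 and 10.

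Genes of different transcript length differed between the pools, and the members are set beside this trend. After scaling, 4 of the 10 members were highest in replicate 2 (Gad1, Tac1, Vip and Penk), against 35% of all genes tested, 3 in replicate 1, against 30.2%, and 3 in replicate 3, against 34.7%. Leaving out symbols of the uncertain kind, genes with transcripts under 1 kb were highest in replicate 2 in 69.9% of cases, those from 1 to 1.5 kb in 71.4% and those from 1.5 to 2 kb in 60.9%, the classes of Tac1, Penk and Vip. Among genes of 5 kb or more, the class of Gad2 and Nos1, the share was 3.57%, and neither gene was highest there. In replicate 2 the log2 deviation from the gene's own mean was 0.25 for Tac1, 0.21 for Vip and 0.50 for Penk, and the medians of their length classes were 0.15, 0.09 and 0.12. After a trend on length was removed, a step chosen after the data were seen, the deviations in replicate 2 were 0.11, 0.11 and 0.39. Those of Vip were then -0.24, 0.11 and 0.13 in replicates 1, 2 and 3, so its highest pool became replicate 3. The number of members highest in replicate 2 was 2 after this step (Tac1 and Penk), against 3355 of 11359 genes, where it had been 4, against 3931 of these genes. The log2 SDs of Slc32a1 (0.18), Slc18a3 (0.21), Vip (0.21) and Chat (0.10) moved by little, from 0.19, 0.22, 0.23 and 0.11 before. Gad1, Gad2 and Nos1 then deviated by at most 0.12 in any replicate. Penk remained the member other than Npy with the largest log2 SD, at 0.36 (adjusted p = 0.491, limma). Slc18a3 kept a deviation of 0.24 in replicate 1, and Slc32a1 one of 0.20.

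**Figure D4:**
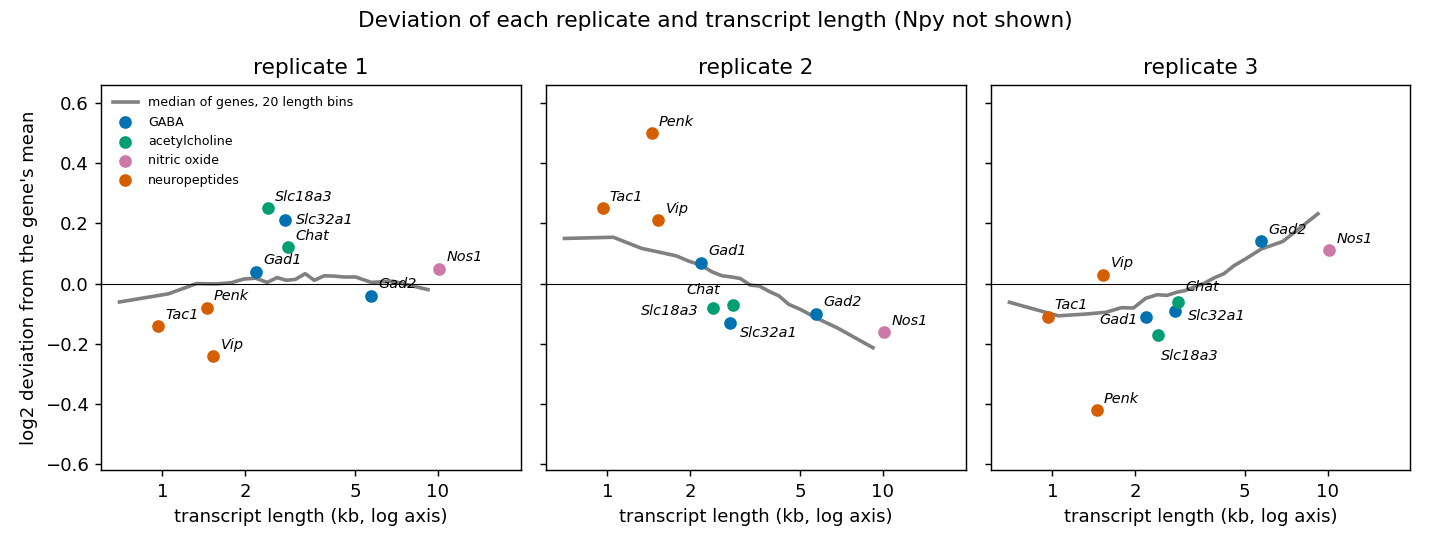
Log2 deviation of 9 members (points, Npy left out) from their own mean in each replicate, against transcript length (kb, log axis), with the median deviation of the genes tested in 20 length bins as a grey line. In replicate 2 the line falls with length, Gad1 and Gad2 lie near it and Penk lies well above it, and in replicate 3 the line climbs and Penk lies well below it.

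The pools also differed in markers of neighbouring tissue. The sums given here are unscaled, so they also carry the scaling factors of 0.983, 1.09 and 0.932 of replicates 1, 2 and 3. The summed level of 8 cornea and muscle markers was 20.8, 36.2 and 12.5 RPKM in replicates 1, 2 and 3, highest where Penk, Tac1 and Vip were highest, and 5 of its 6 tested genes varied between replicates. Not all of them followed the sum: Dcn, which was called, had 10.72, 9 and 1.97 RPKM, and the corneal gene Krt12, also called and with a symbol of the uncertain kind, had 2.5, 1.24 and 3.36 RPKM. Krt14 was at or under 0.05 RPKM throughout, and Myh1 was listed at 0 in replicate 3. The 9 lens markers summed to 631, 290 and 1720 RPKM, with 8 called, and their sum was highest in replicate 3. The Npy row was also high there, and the high row among the Npy symbols was a different one in each replicate. The 8 pigment epithelium markers summed to 505, 480 and 273 RPKM, with 4 called. Of these 4, Rpe65 has a symbol of the uncertain kind and was highest in replicate 2, with 6.25, 20.06 and 6.74 RPKM. Without such symbols 4 of 7 were called, with Dct in its place. The part of these tissues in the members' values was not tested. Of retinal cells, horizontal cell markers summed to 37.2, 39 and 37.9 RPKM and amacrine markers to 360, 389 and 292. Of the 7 rod, 10 amacrine and 4 horizontal cell markers tested with limma 0 were called and 0 had an unadjusted p under 0.05. Muller glia markers summed to 1870, 1950 and 1380 RPKM. Of the 7 tested 0 were called, and 1, Glul, had an unadjusted p under 0.05 (limma). The rod markers had a median of 767 ± 76.6 RPKM and were all above 1 RPKM. The 11 amacrine markers in the tables had a median of 10.2 ± 1.38, led by the calcium-binding protein gene Calb2 (188 ± 35), the transcription factor gene Pax6 (54.3 ± 6.38) and Prdm8 (38.3 ± 4.8). The other 8 listed had no row under the symbols used. Calb2 and Pax6 are also used by ganglion cells. Of the starburst markers, Isl1 had 22.9 RPKM, Sox2 9.24, Megf10 1.73, Slc5a7 1.44 and Fezf1 0.617. Sox2 has a symbol of the uncertain kind, and Isl1 and Sox2 are also used by other retinal cells.

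Related genes of each transmitter class stood at widely different levels, and the median over all genes within a replicate was 6.09 ± 0.396 RPKM. In GABA uptake and turnover, 10 of 13 genes were at 1 RPKM or more in each pool, with a list median of 13.9 ± 6.38 RPKM, led by Glul (329 ± 71.9 RPKM), the glutamine synthetase of Muller glia, Slc38a3 (285 ± 28), a glutamine transporter, and Gls2 (78.4 ± 4.54), a glutaminase. 7 of the 13 have symbols extended by a digit, Gls2 among them, and their levels are less certain for that reason. Without those 7 the median was 21.2 RPKM. 1 of 11 tested was called, Slc38a1, with 0.07, 22.23 and 0.08 RPKM (adjusted p = 2.63e-05, limma). Its symbol is of that kind, and it reached the mean needed for the test only through replicate 2, so the call is given as a description. In acetylcholine handling and receptors, 13 of 16 were at 1 RPKM or more and the median was 2.4 ± 0.23, led by Ache (45.9 ± 8.54), which breaks down acetylcholine, the nicotinic receptor subunit Chrna6 (35.3 ± 2.7) and Slc44a1 (17.7 ± 0.263), a choline transporter-like protein. None of the 13 tested was called by limma, and 0 had an unadjusted p under 0.05. In nitric oxide signalling, 9 of 12 were at 1 RPKM or more and the median was 3.21 ± 0.113, led by Dlg4 (210 ± 10.1), the scaffold PSD-95, and the soluble guanylate cyclase subunits Gucy1a3 (25.6 ± 0.942) and Gucy1b3 (24.9 ± 0.965), the receptor of nitric oxide. Here too none of the 9 tested was called, and 0 had an unadjusted p under 0.05. The enzyme Nos1 thus had a mean of 1.09 RPKM, against 25.6 and 24.9 RPKM for the receptor subunits.

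Other peptide genes were listed as well. Of 13 other amacrine neuropeptides, 7 reached 1 RPKM in each pool, with a list median of 2.74 ± 1.11 RPKM, led by Cartpt (54.8 ± 10.8 RPKM), Cck (21.2 ± 6.47), the cholecystokinin precursor, and Tac2 (15.5 ± 2.92), the neurokinin B precursor. Cartpt is also used by a class of ganglion cells. Cartpt had 49.59, 67.24 and 47.64 RPKM and Cck had 20.11, 28.15 and 15.34 RPKM in replicates 1, 2 and 3. Like Penk, Tac1 and Vip, both were highest in replicate 2, as were 6 of the 8 tested whose symbols are not of the uncertain kind, and none of these 6 passed the test. Of these 8 genes 6 have transcripts under 1.5 kb, lengths at which 69.9% to 71.4% of genes were highest in replicate 2. After the trend on length was removed 5 of the 8 were highest there, against 3355 of 11359 genes. For Tac2, Cartpt and Pomc the log2 deviation in replicate 2 was then only 0.03, 0.04 and 0.02. That of Cck was 0.19 and that of Adcyap1 0.12. Nts was listed at 0 in every replicate. Gal, the galanin precursor, with a symbol of the uncertain kind, had 8, 0.91 and 7.65 RPKM (adjusted p = 0.000415, limma) and was the 1 gene called of 9 tested. Of 13 receptors of the member peptides listed, 9 had a row, and none of these 9 was a receptor of the enkephalins. Among the 9, 4 reached 1 RPKM in each pool, and the median was 0.813 ± 0.675 RPKM (1.72 without uncertain symbols). The highest were Vipr2 (13.8 ± 0.628), a receptor of vasoactive intestinal peptide, and the tachykinin receptors Tacr3 (4.44 ± 0.417) and Tacr1 (2.02 ± 0.19). Npy5r was the 1 of 5 called (adjusted p = 0.000194, limma), against the 5.44% of all genes, and it reached the mean needed for the test only through replicate 1, where it was high. Genes of peptide processing and dense-core vesicles had a median of 36 ± 2.1 RPKM (82.1 without uncertain symbols), with 14 of 15 at 1 RPKM or more and Cpe (421 ± 68.3), carboxypeptidase E, Scg2 (123 ± 18.8) and Chgb (118 ± 12.7), both granins, first. None of the 14 tested was called by limma with all genes, and 3 had an unadjusted p under 0.05. Without symbols of the uncertain kind Vgf was called (adjusted p = 0.0241, limma), with 15.97, 8.9 and 9.27 RPKM. Of genes of other amacrine transmitters, the glycine transporter Slc6a9 had 80.8 ± 8.27 RPKM, Slc6a5, the neuronal glycine transporter, 4.14 ± 0.176 and Slc17a8, a vesicular glutamate transporter, 2.5 ± 0.258.

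**Figure D5:**
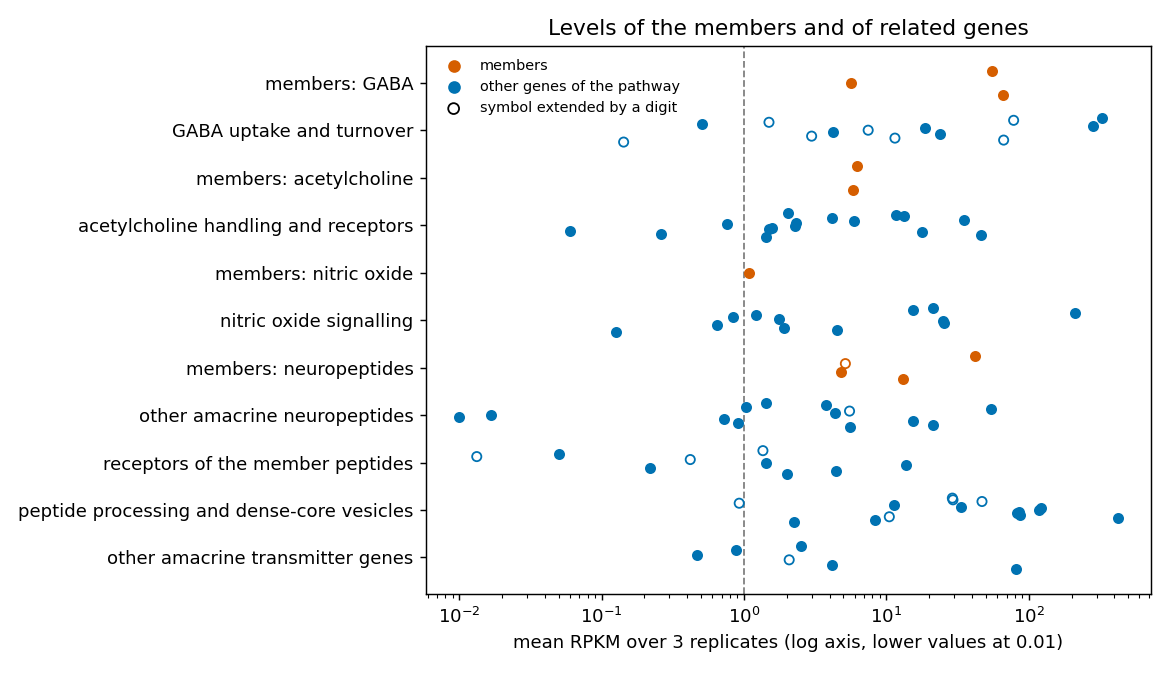
Mean RPKM over 3 replicates (log axis) of the members (orange) and of related genes by list (blue), with open circles for symbols extended by a digit and a dashed line at 1 RPKM. Gad1, Slc32a1 and Penk lie at the upper end, while the only nitric oxide member, Nos1, lies at 1.09 RPKM.

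Likeness between genes was taken as the distance of log2(RPKM + 0.1) over the 3 replicates, with 143 listed genes as candidates. Chat was nearest to Chrna4, a nicotinic receptor subunit with 6.54, 5.96 and 5.34 RPKM, at a distance of 0.08. Tac1 was nearest to Calb1, the calbindin gene of horizontal and amacrine cells, with 10.94, 15.79 and 11.64 RPKM, at 0.13. Gad2 was nearest to Ebf3 (0.22), Slc32a1 to Pax6 (0.25) and Gad1 also to Pax6 (0.48). The nearest gene to Slc18a3 was Chrna4 (0.19), to Nos1 Pde5a (0.29), to Vip Nos3 (0.38) and to Penk Ache (0.64). No gene was near Npy, whose closest was Slc5a7 at 3.68. These distances describe 3 pools and take in the level of a gene as well as its differences between pools.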

How the data were processed

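RNA from pooled retinas was sequenced, and 3 tables, 1 per biological replicate, were read. The deposited values were taken as RPKM, inferred from their size and decimals because no header names a unit, and FPKM would look alike. Per the submitters' processing notes, GSNAP, HTSeq and mm9 were used. The sources used here do not give read depth, annotation or strand use, so no interval or floor on counts is given.

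Of 15468 rows, repeated symbols were kept once (15465 genes). Scaling used a trimmed mean of log ratios (leaving out 30% of the ratios and 5% of the means at each extreme), with factors 0.983, 1.09 and 0.932. Levels and ratios are unscaled. The variance test used limma 3.58.1 (R 4.3.3, statmod 1.5.0), a pseudocount of 0.1 and genes with a mean of at least 1 RPKM. Lengths are medians over RefSeq-linked GENCODE M21 transcripts (13945 genes). Motifs were searched on both strands in RefSeq windows.

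The members, lists and the robust prior were chosen with earlier results of these data known. The genes named are all members, the 3 of highest mean in each related list, list genes called, and for each member the nearer of the 2 closest genes by distance. Of lists that serve only as markers of other cells, sums or medians are given, with a few genes named after their values were seen. Replicates may differ for technical reasons as well as between mice.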

Additional observations from a re-analysis of the deposited data

How the results depend on the processing

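No paired analysis was possible because there is 1 group. The number of genes varying between replicates was 683. It was 0 with the non-robust trended prior (limma, 704 with an unadjusted p below 0.05), 185 when digit-extended symbols were left out, 98 without the wider kind of symbols and 83 with the non-robust prior without digit-extended symbols, the last 2 chosen after seeing the data. Digit-extended symbols are here another symbol plus digits only, or that shorter symbol (2380 genes, 0 members). The wider kind allows any ending after the digit and takes in Npy. It was between 303 (without replicate 2) and 473 with a replicate left out, and between 494 and 794 under the other 5 alternatives. Leaving out symbols or replicates also lowers how much is tested, and what else moved these counts was not tested. The call of Npy was lost with the non-robust prior (adjusted p = 0.247, limma). With digit-extended symbols left out and Npy kept, the adjusted p of Npy under that prior was 0.00151 (limma). Its call remains a description, since it passed the filter only through replicate 3. Leaving out the wider kind removed Npy itself, so its call could not be tested there. Without replicate 3 the mean of Npy was under the filter. No other member was called under any alternative run, and Penk had an adjusted p between 0.0698 and 0.991.

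Multiplying by transcript length gave log2 ratios of 2.14 for Gad1 to Gad2, -0.15 for Slc18a3 to Chat (0.09 before, so the sign turned), 3.41 for Gad1 with Gad2 to Chat and -2.20 for Tac1 to Penk. A pseudocount of 1 gave 3.43 for Gad1 with Gad2 to Chat. These moves follow from the lengths and the pseudocount themselves. The ratio of Npy to Penk was -6.72 without replicate 3. The Npy level from the highest product among its rows was 16.1 RPKM, chosen after seeing the data, against 5.16 in its own row. Depth is unknown, so the precision of the low values of Nos1 and Npy cannot be stated.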
